A study of Homo sapiens with 8 samples.

Results

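The transcripts of 8 genes that are recurrently mutated, fused or deleted in cholangiocarcinoma (CCA, cancer of the bile duct) were followed through treatment with a BET degrader and an mTOR inhibitor. The genes were IDH1, IDH2, FGFR1, FGFR2, BAP1, ARID1A, PBRM1 and SMAD4. They were taken by symbol from the 56269 genes of the expression tables of both CCA cell lines, SNU1079 and SSP25, and each gene matched 1 row in each table. The rule for choosing them used no values, although earlier results of these data were known at that time. RNA was sequenced in 8 libraries, 1 for each of 4 treatments in each line after 48 h: BETp + mTORi (ARV825 with AZD8055, for which the labels give no doses), BETp (ARV825 at 40 nM, a molecule that directs the BET bromodomain proteins to degradation), mTORi (AZD8055 at 50 nM, an inhibitor of both mTOR complexes) and vehicle (0.01% DMSO). The labels describe both lines as cholangiocarcinoma cells of wildtype genotype. SNU1079 is nevertheless known to carry mutations of IDH1 and ARID1A, so its values for these genes are not those of wild-type driver genes. Each treatment of a line was 1 culture, so the lines stood as replicates of a drug effect, and within a single line a drug effect and a difference between cultures cannot be told apart. Expression was given in TPM, transcript abundance corrected for transcript length and library size, which keeps no read depth, so no counting error could be attached to a value. TPM does not separate alleles, so mutant and normal transcripts of a gene were read together.

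IDH1 and IDH2 encode the cytosolic and mitochondrial isocitrate dehydrogenases that make 2-oxoglutarate and NADPH. CCA mutations in their active sites make them produce 2-hydroxyglutarate, which inhibits TET and lysine demethylases. FGFR1 and FGFR2 encode receptor tyrosine kinases for fibroblast growth factors, and FGFR2 fusions are known drivers of intrahepatic CCA. BAP1, ARID1A, PBRM1 and SMAD4 are tumor suppressors: a histone H2A deubiquitinase, subunits of the BAF and PBAF forms of the SWI/SNF chromatin remodeler, and the common SMAD of TGF-β and BMP signaling.

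Both lines carried biliary markers. Of 11 markers on the list, 10 were at 1 TPM or more in all SNU1079 libraries and 8 in all SSP25 libraries, and CFTR was under 1 TPM in both lines. The biliary list summed to 7987 to 11501 TPM in SNU1079 and 3329 to 3897 TPM in SSP25. Other markers were mixed. Of 8 hepatocyte markers, 1 was at 1 TPM or more in all SNU1079 libraries (SERPINA1, 7.64 to 41.75 TPM) and 0 in SSP25, and ALB was under 1 TPM in every library. Of 6 fibroblast markers, 1 was at 1 TPM or more in all SNU1079 libraries (COL1A1, 272.22 to 1002.53 TPM) and 1 in all SSP25 libraries (LUM, 8.93 to 24.93 TPM), and COL1A2 and DCN were under 1 TPM in every library. Of 6 leukocyte and endothelial markers, 1 was at that level in all libraries of both lines (CD68, 76.39 to 85.52 TPM in SNU1079 and 141.12 to 209.54 TPM in SSP25), and PTPRC was under 1 TPM in every library. Mitochondrially encoded transcripts took 14.4% to 19.2% of the TPM in SNU1079 and 5.99% to 10.1% in SSP25.

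IDH1 is the 1 driver that passed a test of a drug effect, a call lost under 13 of 15 alternatives, and its promoter is shown for that reason. The sequence is the 250 bases upstream of the more distal of its 2 annotated starts, on the minus strand at chr2:208255072-208255321 of GRCh38.p14 (RefSeq), a later build than that of the gene positions. Capitals mark GC boxes (GGGCGG, or CCGCCC on the other strand) and CCAAT boxes (CCAAT, or ATTGG on the other strand), which did not overlap.
IDH1 upstream window: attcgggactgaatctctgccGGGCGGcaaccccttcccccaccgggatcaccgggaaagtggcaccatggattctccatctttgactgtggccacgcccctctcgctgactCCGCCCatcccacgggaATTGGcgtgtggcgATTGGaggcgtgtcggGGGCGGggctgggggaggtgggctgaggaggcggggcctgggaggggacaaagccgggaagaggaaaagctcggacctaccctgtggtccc
The window held 3 GC boxes and 2 CCAAT boxes. The window of the same length upstream of the other IDH1 start, not shown, held 1 GC box and 0 CCAAT boxes. GC boxes were found in 42.6% and CCAAT boxes in 32.0% of the 35116 RefSeq windows of the same length. The E-box letters CACGTG, present in 6.34% of those windows, were in neither IDH1 window. These matches describe letters only, and no binding data were used.

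In GRCh37 coordinates, the build of the files, the genes lie on 7 chromosomes. IDH1 is at chr2:209100953-209130798 and IDH2 at chr15:90626277-90645709, both on the minus strand. FGFR1 is at chr8:38257733-38326352 and FGFR2 at chr10:123237846-123357972, both on the minus strand. BAP1 at chr3:52435024-52444024 and PBRM1 at chr3:52579368-52719933 are neighbors on the minus strand of chromosome 3. ARID1A at chr1:27019727-27108595 and SMAD4 at chr18:48554898-48611415 are on the plus strand. Exons annotated to other genes overlapped at most 4.93% of the exonic bases of any of them, the most in SMAD4, on the same strand. Antisense exons shared 94 bases with IDH1 (IDH1-AS1), 138 and 387 bases with FGFR1 (LETM2 and a long noncoding RNA), 382 bases with ARID1A (a long noncoding RNA) and 146 bases with PBRM1 (UQCC5).

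In SNU1079, over the 4 treatments, FGFR1 averaged 117 ± 40.9 TPM, IDH1 76.2 ± 23.6, SMAD4 48.6 ± 1.77, IDH2 48.2 ± 15.7, BAP1 30.6 ± 2.96, ARID1A 18.5 ± 1.17, PBRM1 3.82 ± 0.525 and FGFR2 2.01 ± 0.837 (mean ± SD, n = 4 libraries of different treatments). Ranges of neighbors in this order overlapped from FGFR1 down to BAP1, while BAP1, ARID1A, PBRM1 and FGFR2 were each apart from the next. In SSP25 the order was IDH1 at 148 ± 51.0 TPM, FGFR1 at 66.2 ± 5.17, BAP1 at 38.0 ± 0.531, IDH2 at 26.4 ± 4.77, SMAD4 at 19.0 ± 3.59, PBRM1 at 11.7 ± 0.874 and ARID1A at 11.5 ± 0.745 (mean ± SD, n = 4). FGFR2 was listed at 0 in 3 SSP25 libraries and at 0.06 TPM with vehicle. Only IDH2 and SMAD4, and PBRM1 and ARID1A, overlapped with the next in order in SSP25.

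**Figure D1:**
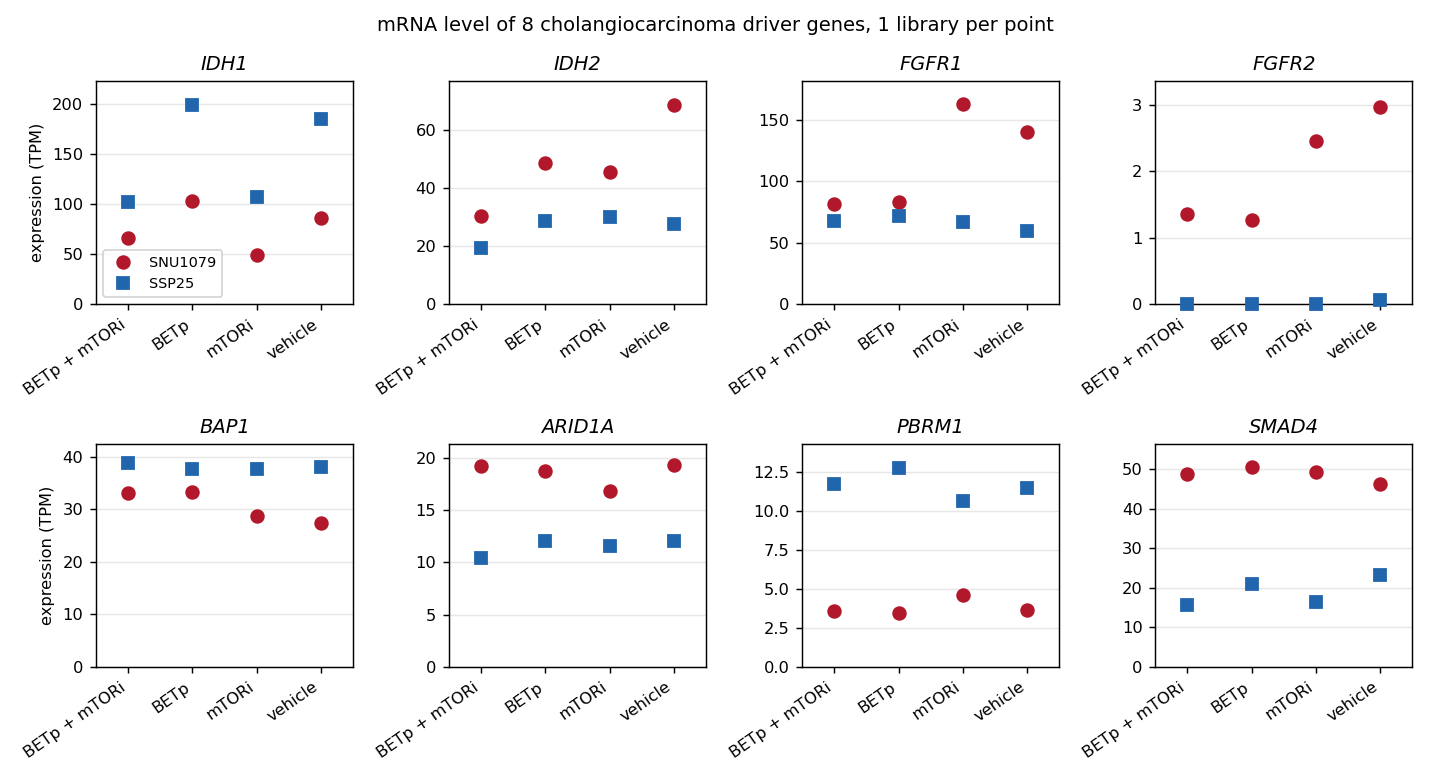
Expression of the 8 driver genes in TPM (vertical axes start at 0 and differ between panels) by treatment, 1 library per point, with SNU1079 as red circles and SSP25 as blue squares. IDH1 is lower in both libraries with mTORi than in both without it in each line, and FGFR1 is at 81.62 and 83.28 TPM in the SNU1079 libraries with BETp, against 162.66 and 140.08 TPM in those without.

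IDH1 was the 1 driver called lower with mTORi, in the averaged comparison described below, a call lost under 13 of 15 alternatives. It was at 66.34 TPM with BETp + mTORi, 103.51 with BETp, 49.18 with mTORi and 85.84 with vehicle in SNU1079. In SSP25 it was at 101.60 TPM with BETp + mTORi, 198.88 with BETp, 106.98 with mTORi and 185.02 with vehicle. In each line both libraries with mTORi were below both without it, and the groups did not overlap. The share of all genes whose libraries separated in this way was not determined. Such a separation, for IDH1 or for the drivers below, therefore does not by itself set a gene apart. With mTORi alone IDH1 was at 57.3% of vehicle in SNU1079 and 57.8% in SSP25. With BETp + mTORi it was at 64.1% of BETp in SNU1079 and 51.1% in SSP25.

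Averaged over BETp, 4 libraries with mTORi against 4 without, IDH1 was lower by a log2 difference of -0.79 ± 0.09 on the log2(TPM + 1) scale (95% interval -1.001 to -0.58, adjusted p = 0.0322). The test was limma's moderated linear model with Benjamini-Hochberg adjustment over the 16060 genes that reached 1 TPM in 2 or more libraries, and errors are standard errors of the fit. This averaged model was proposed with results of these data known, and as fitted it was the only model in which a driver was called with a drug. By p-value IDH1 ranked 12 among the 16060 genes. It was the 1 driver of 8 called at an adjusted p under 0.05, against 1.05% of all genes tested in either direction and 0.884% in the lower direction. The median of all genes in this comparison was -0.11, and relative to it IDH1 was at -0.68. The difference was -0.66 with quantile normalization (adjusted p = 0.0823) and -0.70 after rescaling without mitochondrial, ribosomal protein and ferritin genes (adjusted p = 0.0827). The call was also lost without any single library, with adjusted p between 0.0705 and 0.128 and a difference between -0.87 and -0.71. Of 10 tested biliary markers, 2 were called lower with mTORi in this comparison and 8 were not called, KRT7 and KRT19 among them. The 2 were the keratins KRT8 and KRT18, with log2 differences of -0.38 ± 0.06 and -0.51 ± 0.09 (adjusted p = 0.0428 and 0.0488, limma). Their part in the IDH1 result was not tested. Both keratin calls were lost under 14 of 15 alternatives, with adjusted p between 0.0737 and 0.178 when single libraries were left out.

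In the pairwise comparisons, which rest on 2 libraries against 2, IDH1 had similar differences and was not called. For mTORi against vehicle it was -0.79 ± 0.14 (adjusted p = 0.413, limma), where 0 of 8 drivers and 0.0125% of all genes were called. For BETp + mTORi against BETp it was -0.80 ± 0.14 (adjusted p = 0.337, limma), where 0 of 8 drivers and 0% of all genes were called at the threshold and 1840 of 16060 genes had an unadjusted p under 0.05. For BETp + mTORi against vehicle it was -0.61 ± 0.14 (adjusted p = 0.0668, limma). For BETp averaged over mTORi the IDH1 difference was 0.18 ± 0.09 (95% interval -0.03 to 0.39, adjusted p = 0.275, limma). The departure from additivity, the gap between the effect of both drugs together and the added effects of each alone, was -0.01 ± 0.20 for IDH1, with an interval from -0.48 to 0.46 that leaves room for sizeable departures. In that comparison 0 of 8 drivers and 0% of all genes were called, and 322 genes had an unadjusted p under 0.05.

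IDH2 was lowest under the combination in both lines. In SNU1079 it was at 30.37 TPM with BETp + mTORi, 48.46 with BETp, 45.40 with mTORi and 68.56 with vehicle. In SSP25 it was at 19.42 TPM with BETp + mTORi, 28.67 with BETp, 29.95 with mTORi and 27.70 with vehicle. The combination was at 44.3% of vehicle in SNU1079 and 70.1% in SSP25, while each single agent lay below vehicle in SNU1079 only and slightly above it in SSP25. For BETp + mTORi against vehicle the log2 difference was -0.82 ± 0.18 (95% interval -1.25 to -0.39, adjusted p = 0.0636, limma). In that comparison 0 of 8 drivers were called, against 1.81% of all genes. When the set tested was limited to genes that reached 5 TPM in 2 or more libraries, IDH2 passed at an adjusted p of 0.0491. The log2 differences for BETp + mTORi against BETp and against mTORi were -0.60 ± 0.18 and -0.58 ± 0.18 (adjusted p = 0.368 and 0.283, limma). COL1A1, the collagen gene that was the 1 abundant fibroblast marker, was also lowest under the combination in SNU1079, at 272.22 TPM with BETp + mTORi, 546.47 with BETp, 599.11 with mTORi and 1002.53 with vehicle, while COL1A2, COL3A1, DCN and LUM were under 1 TPM there. The remaining fibroblast marker, PDGFRB, was low in SNU1079 and went the other way, with its highest value under the combination. The part of COL1A1 in the IDH2 values was not tested.

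Averaged over the other drug, IDH2 had log2 differences of -0.40 ± 0.13 with BETp (adjusted p = 0.140) and -0.42 ± 0.13 with mTORi (adjusted p = 0.128, limma), neither past the threshold. Without the SSP25 vehicle library the BETp difference was -0.57 and passed at an adjusted p of 0.0482. IDH1 made up 68.6% of the summed IDH1 and IDH2 TPM with BETp + mTORi, 68.1% with BETp, 52.0% with mTORi and 55.6% with vehicle in SNU1079. In SSP25 its share was 84.0% with BETp + mTORi, 87.4% with BETp, 78.1% with mTORi and 87.0% with vehicle.

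FGFR1 differed between the lines in its values with BETp. In SNU1079 it was at 81.62 TPM with BETp + mTORi, 83.28 with BETp, 162.66 with mTORi and 140.08 with vehicle. Both SNU1079 libraries with BETp were thus below both without it. In SSP25 it was at 67.53 TPM with BETp + mTORi, 71.36 with BETp, 66.95 with mTORi and 59.05 with vehicle, so that all libraries lay within 59.05 to 71.36 TPM and those with BETp were the higher ones. BETp alone left 59.5% of the vehicle level in SNU1079 and stood at 121% of it in SSP25. The BETp effect in SNU1079 minus that in SSP25, tested as an interaction, was -1.01 ± 0.14 on the log2 scale (95% interval -1.37 to -0.64, adjusted p = 0.184, limma). FGFR1 ranked 69 of 16060 genes by p in this test, where 0 of 8 drivers and 0.00623% of all genes were called, so a difference between the lines in the BETp effect was not established across all genes. Averaged over both lines the BETp effect was -0.36 ± 0.19 (adjusted p = 0.301, limma). Of 10 tested biliary markers, 1 was called lower in the same averaged comparison and 9 were not called. The 1 was the epithelial marker EPCAM, with a log2 difference of -0.57 ± 0.10 (adjusted p = 0.0403, limma). In SSP25 EPCAM was low, at 0.90 to 1.74 TPM, and its part in the FGFR1 values was not tested. The EPCAM call was lost under 13 of 15 alternatives, with adjusted p between 0.0667 and 0.129 when single libraries were left out.

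FGFR2 was a low transcript in SNU1079, with 1.35 TPM under BETp + mTORi, 1.26 under BETp, 2.46 under mTORi and 2.96 under vehicle. Both libraries with BETp were below both without it. The log2 difference between lines in the BETp effect was -0.64 ± 0.22 (adjusted p = 0.351, limma), and since FGFR2 was near 0 in SSP25 it could hardly fall there. The other receptors set the lines apart: FGFR4 was at 42.92 to 55.54 TPM in SNU1079 against 0.38 to 0.65 in SSP25, and FGFR3 at 13.31 to 18.77 TPM against 0.10 to 0.70. FGFR1 made up 53.9% to 71.0% of the summed TPM of FGFR1 to FGFR4 in SNU1079 and 97.9% to 99.2% in SSP25.

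**Figure D2:**
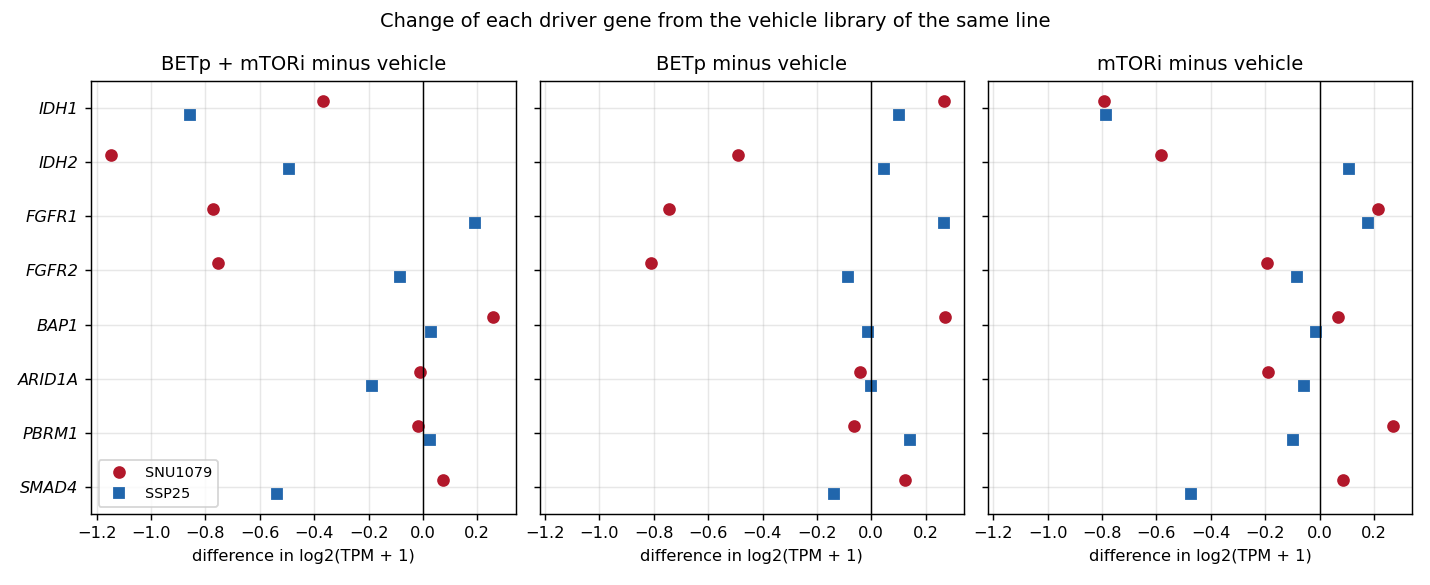
Difference in log2(TPM + 1) of each driver gene from the vehicle library of the same line, for BETp + mTORi, BETp and mTORi, with SNU1079 as red circles and SSP25 as blue squares, 1 library against 1 and no error. IDH1 lies at about -0.79 with mTORi in both lines, and FGFR1 lies at -0.74 in SNU1079 and 0.27 in SSP25 with BETp.

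None of the tumor suppressors was called with a drug. BAP1 was at 32.99 TPM with BETp + mTORi, 33.27 with BETp, 28.78 with mTORi and 27.41 with vehicle in SNU1079, and at 38.75, 37.61, 37.64 and 37.96 TPM with the same treatments in SSP25. The SNU1079 libraries with BETp were the higher ones, and the SSP25 libraries spanned 1.03-fold. ARID1A was at 19.19 TPM with BETp + mTORi, 18.76 with BETp, 16.81 with mTORi and 19.34 with vehicle in SNU1079, and at 10.45, 12.03, 11.53 and 12.03 TPM with the same treatments in SSP25. Its highest and lowest libraries differed 1.15-fold in each line.

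PBRM1 was at 3.59 TPM with BETp + mTORi, 3.45 with BETp, 4.6 with mTORi and 3.65 with vehicle in SNU1079, and at 11.73, 12.81, 10.69 and 11.50 TPM with the same treatments in SSP25. With mTORi alone it was the highest library of SNU1079 and the lowest of SSP25, with a span of 1.33-fold in SNU1079. SMAD4 was at 48.67 TPM with BETp + mTORi, 50.45 with BETp, 49.20 with mTORi and 46.24 with vehicle in SNU1079, a span of 1.09-fold. In SSP25 it was at 15.64 TPM with BETp + mTORi, 20.92 with BETp, 16.39 with mTORi and 23.12 with vehicle, a span of 1.48-fold, so that both libraries with mTORi were below both without it.

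The mTORi effect on SMAD4 in SNU1079 minus that in SSP25 was 0.45 ± 0.13 on the log2 scale (95% interval 0.13 to 0.77, adjusted p = 0.263, limma). In that interaction 0 of 8 drivers and 0% of all genes were called, and 2282 genes had an unadjusted p under 0.05. Averaged over both lines, SMAD4 had a log2 difference of -0.21 ± 0.11 with mTORi (adjusted p = 0.307, limma). For BAP1, ARID1A and PBRM1 the averaged differences lay between -0.10 and 0.12 for both drugs. Their 95% intervals reached no further than -0.30 and 0.30 with the values scaled as deposited. Quantile normalization moved BAP1 to 0.21 with BETp and 0.17 with mTORi, and PBRM1 to 0.16 with mTORi. The intervals therefore set no bound that holds under another scaling.

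For BETp averaged over mTORi, 0 of 8 drivers were called, against 1.82% of all genes. For BETp against vehicle 0 of 8 were called, against 0.00623% of all genes, and for BETp + mTORi against mTORi 0 of 8, against 0.0125%. At an unadjusted p under 0.05, 1 of 8 drivers was found for BETp averaged over mTORi (IDH2) against 22.8% of all genes. For BETp against vehicle it was 0 of 8 against 8.90%. For BETp + mTORi against mTORi it was 1 of 8 (IDH2) against 13.4%. These shares are no more than the background. A higher share was found for the line difference in the BETp effect, 3 of 8 against 12.4%. For BETp + mTORi against BETp it was 2 of 8 against 11.5%. Shares for mTORi against vehicle and mTORi averaged over BETp were slightly above background. The remaining drug comparisons were not above it. An excess among 8 genes was not tested. The comparisons with vehicle share the vehicle libraries and are not independent of each other.

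**Figure D3:**
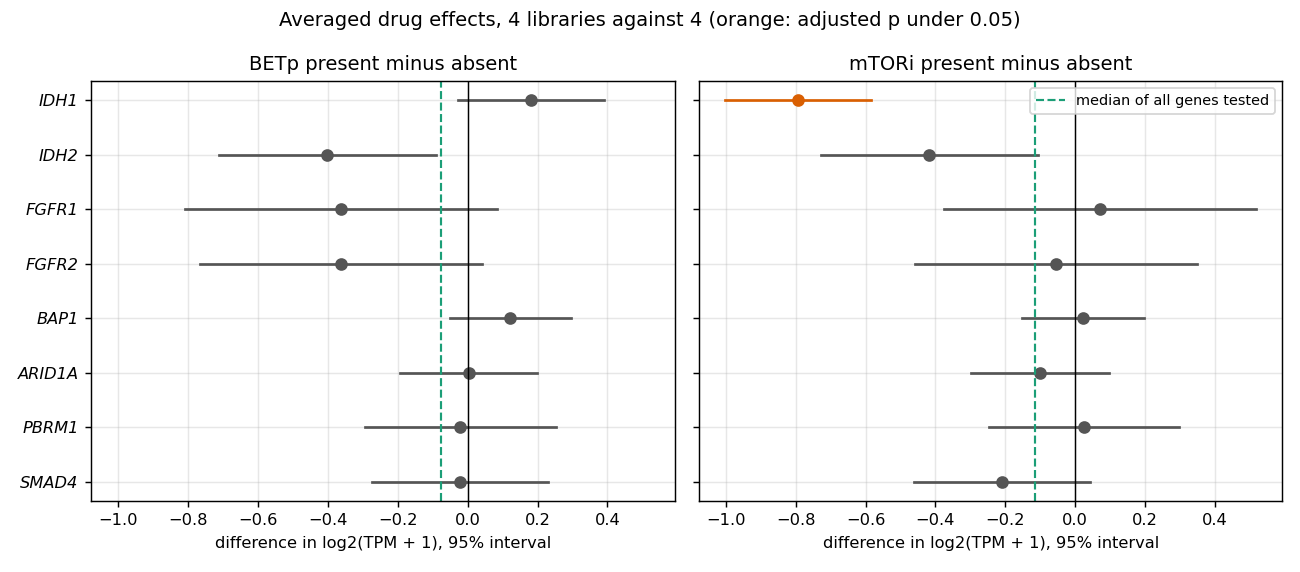
Averaged effect of BETp (left) and mTORi (right) on each driver gene as a difference in log2(TPM + 1), 4 libraries with the drug minus 4 without, with 95% intervals from limma. Orange marks an adjusted p under 0.05, the dashed line is the median of all genes tested, and only the interval of IDH1 with mTORi is orange, at -0.79.

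The lines differed from each other more than the treatments did. With treatment held constant, 5 drivers were higher and 3 lower in SNU1079 than in SSP25 at an adjusted p under 0.05 (limma), and 38.2% of all genes tested were higher and 35.8% lower, 74% in all. Being called is therefore common, and the sizes carry more than the count. The 4 libraries of a line come from 1 line each. Treatment is a term of the fit, so the test sets the line difference against its own variation across treatments. It does not ask whether kinds of tumor differ.

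SMAD4 was higher in SNU1079, at 46.24 to 50.45 TPM against 15.64 to 23.12 in SSP25, a log2 difference of 1.33 ± 0.12 (adjusted p = 5.06e-05). ARID1A was higher in SNU1079, at 16.81 to 19.34 TPM against 10.45 to 12.03, a log2 difference of 0.64 ± 0.10 (adjusted p = 0.000666). IDH2 was higher by 0.80 ± 0.13 (adjusted p = 0.000945) and FGFR1 by 0.75 ± 0.20 (adjusted p = 0.0116) on the log2 scale, FGFR1 with ranges that came as near as 81.62 TPM in SNU1079 and 71.36 TPM in SSP25. FGFR2 entered the test through its SNU1079 libraries alone, so it had to differ and its place in the count of higher drivers is not a result. Its difference of 1.53 ± 0.19 is a description set by the pseudocount, and it was 4.14 with a pseudocount of 0.1. PBRM1 was lower in SNU1079, at 3.45 to 4.6 TPM against 10.69 to 12.81 in SSP25, a log2 difference of -1.40 ± 0.13 (adjusted p = 5.52e-05). IDH1 was lower by a log2 difference of -0.94 ± 0.10 (adjusted p = 0.000115), with ranges that overlapped between 101.60 and 103.51 TPM.

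BAP1 was lower in SNU1079, at 27.41 to 33.27 TPM against 37.61 to 38.75 in SSP25, a log2 difference of -0.31 ± 0.08 (adjusted p = 0.0130). That call was lost with quantile normalization (-0.15, adjusted p = 0.131), after rescaling without mitochondrial, ribosomal protein and ferritin genes (-0.08, adjusted p = 0.403), and without either vehicle library (-0.26 each, adjusted p = 0.0503 and 0.0515). Rescaling moved the median of all genes to 0.28, against 0.05 as deposited, and relative to these medians BAP1 was at -0.36 in both cases.

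Around the drivers, the same comparison was made for the other genes of their pathways. Of 17 tested genes of the FGF receptor list, 13 were higher and 1 lower in SNU1079, with a median of 0.71 against 0.05 for all genes. The largest differences were FGFR4 at 5.06 ± 0.13, ESRP2, a splicing regulator of epithelial FGF receptor isoforms, at 3.73 ± 0.15 and FGFR3 at 3.72 ± 0.12, and the ligand FGF2 was lower at -3.94 ± 0.15. All 4 of these passed the filter through 1 line alone, so they had to differ and their sizes are a description set by the pseudocount. FGFR2 and the ligand FGF19 also passed through SNU1079 alone. The counts and the median of this list include all of these genes. With a pseudocount of 0.1 the differences were 6.33 for FGFR4, 6.08 for ESRP2, 5.50 for FGFR3 and -6.95 for FGF2. The decoy receptor FGFRL1 had a difference of -0.18, which was not called. It turned to 0.050 with rescaling, and it was -0.29 and called without either vehicle library, with an adjusted p down to 0.0458.

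Among 25 tested SWI/SNF subunits, 14 were higher and 6 lower in SNU1079, with a median of 0.49. The PBAF subunits PHF10 (1.43 ± 0.10) and ARID2 (1.25 ± 0.11) and the shared subunit SMARCE1 (1.18 ± 0.07) were higher, whereas PBRM1, itself a PBAF subunit, the ATPase SMARCA2 (-1.10 ± 0.13) and BCL7B (-0.997 ± 0.08) were lower. ARID1B, the alternative to ARID1A in the BAF complex, was lower at -0.61 (7.53 to 11.50 TPM in SNU1079 against 12.44 to 17.37 in SSP25). ARID1A made up 59.4% to 72.0% of the summed ARID1A and ARID1B TPM in SNU1079 and 40.9% to 46.3% in SSP25.

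Of 31 tested genes of TGF-β and BMP signaling, 21 were higher and 4 lower in SNU1079, with a median of 0.79. The BMP target ID2 (4.06 ± 0.16), the inhibitory SMAD7 (2.84 ± 0.17) and the ligand TGFB2 (2.45 ± 0.15) led, and the coreceptor TGFBR3 (-1.81 ± 0.13), the ubiquitin ligase SMURF1 (-0.84 ± 0.09) and the corepressor SKI (-0.79 ± 0.10) were lower. SMAD2, a partner of SMAD4, was higher at 0.99, while SMAD3 had a difference of 0.14 that was not called. It was called under both other scalings, with 0.37 and an adjusted p of 0.0143 after rescaling. SMAD4 made up 23.9% to 26.0% of the summed SMAD2, SMAD3 and SMAD4 TPM in SNU1079 and 13.9% to 17.0% in SSP25.

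Of 19 tested isocitrate dehydrogenases and enzymes of 2-oxoglutarate metabolism, 6 were higher and 8 lower in SNU1079, with a median of 0.06. D2HGDH, which oxidizes D-2-hydroxyglutarate, was higher at 1.93 ± 0.15, and TET3, which oxidizes methylcytosine, at 1.12 ± 0.13. The histone demethylases KDM5C (-1.15 ± 0.08) and KDM6A (-1.07 ± 0.15) were lower. Of the subunits of the NAD-dependent mitochondrial enzyme, IDH3A (-0.80) and IDH3G (-0.91) were lower and IDH3B (0.35) was higher in SNU1079.

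Of 16 tested partners of BAP1 and writers of H2A ubiquitin, 4 were higher and 7 lower, with a median of -0.14. The balance depended on the scaling, with 6 higher and 3 lower and a median of 0.08 after rescaling, and 6 higher and 5 lower with quantile normalization. The BAP1 partners MBD5 (0.84 ± 0.10), ASXL1 (0.68 ± 0.11) and ASXL2 (0.46 ± 0.11) were higher in SNU1079, and the H2A ubiquitin ligases RNF2 (-1.25 ± 0.14) and RING1 (-0.96 ± 0.09) and the BAP1 partner YY1 (-0.45 ± 0.08) were lower. Of 38 tested other genes often altered in CCA, 20 were higher and 10 lower in SNU1079, with a median of 0.36. These counts include genes that passed the filter through 1 line alone and had to differ. RNF43 and ERBB3 passed through SNU1079, and CDKN2A and CDKN2B through SSP25. The epithelial transcription factor ELF3 was higher in SNU1079, at 135.22 to 339.44 TPM against 6.33 to 15.02 TPM in SSP25, by a log2 difference of 4.22 ± 0.22. The cell cycle inhibitor CDKN2B was listed at 0 in all SNU1079 libraries and was at 9.44 to 15.11 TPM in SSP25, and its neighbor CDKN2A was at 0 to 0.27 TPM in SNU1079 against 59.66 to 82.63 TPM in SSP25. The lists were set up with earlier results of these data known and got no test of their own.

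**Figure D4:**
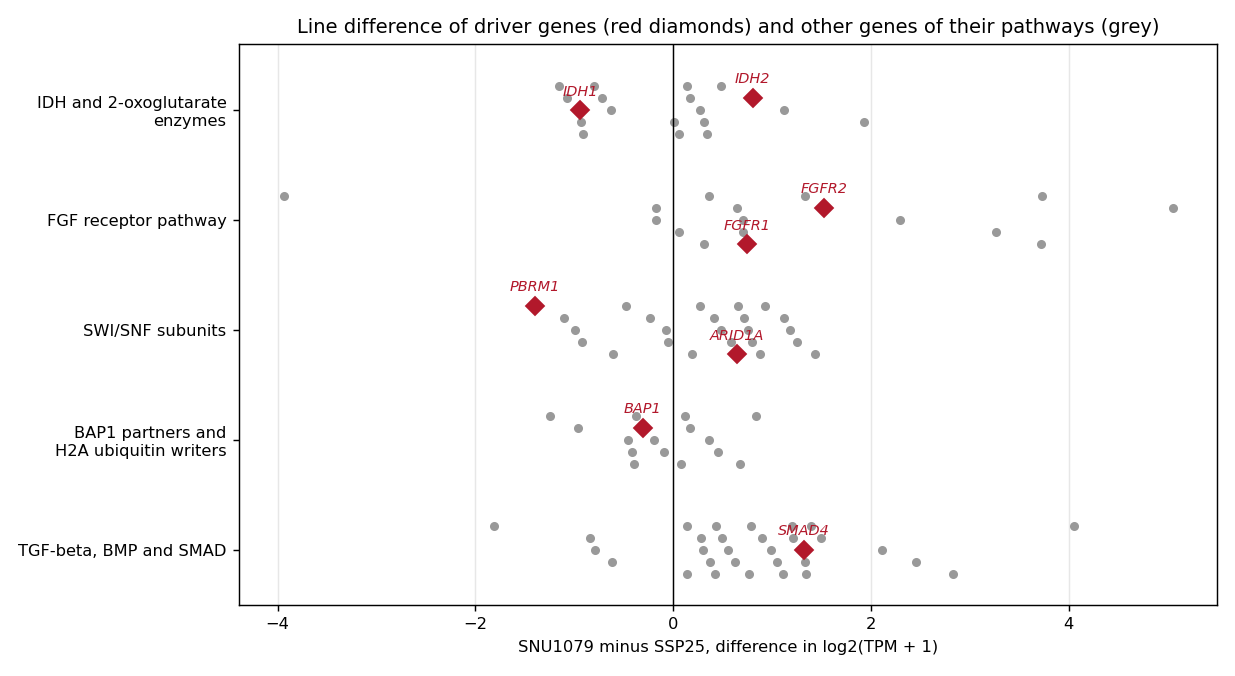
Difference in log2(TPM + 1) between SNU1079 and SSP25 for the driver genes (red diamonds, named) and the other tested genes of 5 pathway lists (grey circles, spread vertically for legibility), positive where SNU1079 is higher. PBRM1, at -1.40, lies below the other tested SWI/SNF subunits, and the FGF receptor list reaches 5.06 at FGFR4.

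With the drugs, few genes of these lists were called. Averaged over BETp, IDH1 was lower with mTORi and so was GRB2, the adaptor that links receptor tyrosine kinases to RAS, with a log2 difference for GRB2 of -0.35 ± 0.06 (adjusted p = 0.0488, limma). Averaged over mTORi, BETp lowered SMARCB1, a core SWI/SNF subunit, to 32.44 and 36.90 TPM in the SNU1079 libraries with BETp, against 47.53 and 50.05 TPM in those without, a log2 difference of -0.41 ± 0.08 over both lines (adjusted p = 0.0467, limma). BETp + mTORi raised CTGF, a secreted matricellular target of TGF-β, to 52.93 TPM in SNU1079 and 26.63 TPM in SSP25, against 23.51 and 9.27 TPM with vehicle, a log2 difference of 1.28 ± 0.20 (adjusted p = 0.0426, limma). None of the 16 tested genes of the BAP1 list was called with either averaged drug. Of all genes, 1.05% were called for mTORi averaged over BETp, 1.82% for BETp averaged over mTORi and 1.81% for BETp + mTORi against vehicle. In lists of this size, a single call or none does not set a list apart from these shares. Calls of GRB2, SMARCB1 and CTGF were each lost under at least 12 of 15 alternatives, including quantile normalization and the omission of single libraries.

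After the line means were subtracted, the genes most like each driver over the 8 libraries were found by Pearson's r among 10642 genes with a mean of at least 5 TPM. They were FAM104A and REEP5 for IDH1 (r = 0.982 and 0.982), NPRL3 and NT5DC2 for IDH2 (0.989 and 0.979), LRRN2 and OLFM1 for FGFR1 (0.983 and 0.972), and MED7 and UBL7 for PBRM1 (0.970 and 0.966). For BAP1 they were SNORA3B and LAMP2 (0.969 and 0.968), for ARID1A CD24 and CDK18 (0.983 and 0.963), for SMAD4 UBE2A and DICER1 (0.990 and 0.987), and for FGFR2 FOXJ1 and CITED4 (0.986 and 0.979). All pairs share the same 8 libraries and each is the highest of many, so these values are a description.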

How the data were processed

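For each cell line the authors deposited a table of TPM per gene, made from strand-specific (dUTP) libraries on GRCh37. The submitters' processing notes name DESeq2 and edgeR. No aligner or annotation is given in the sources used here. TPM keeps no read depth, so count tests were not possible. Totals were 998559 to 999362 TPM, and 0 pairs of libraries held identical values.

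Genes that reached 1 TPM in 2 or more libraries (16060 of 56269) were transformed to log2(TPM + 1) and fitted in R 4.3.3 with limma 3.58.1 (eBayes with trend, two-sided, Benjamini-Hochberg over all genes, calls at 0.05), after the code was tested on simulated data. Pairwise comparisons used treatment and cell line, averaged effects used cell line, BETp and mTORi, and line differences added line-by-drug terms. Pairing comes from the cell line, which same-numbered libraries share. P-values measure the spread between these libraries that is left after the terms of each fit. Alternatives were another pseudocount (0.1), filter (none, 5 TPM), scaling, variance model, no block and each library left out. Named were all drivers, fixed paralogs, up to 3 called genes per list and direction, and the 2 genes most like each driver. Positions and overlaps came from GENCODE. The drivers, lists and the averaged model were chosen with earlier results of these data known.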

Additional observations from a re-analysis of the deposited data

How the results depend on the processing

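Over the 14 alternatives run for the line comparison, the line differences of IDH1, IDH2, FGFR1, ARID1A, PBRM1 and SMAD4 kept their direction and call. The number of drivers called for mTORi averaged over BETp was 1 and became 0 with no filter, quantile normalization, rescaling, robust eBayes without trend and without any single library (0 to 0). It was also 0 without the replicate block for cell line, which left the IDH1 difference at -0.79, and that fit changed no other number of drivers called. IDH1 stayed called with a pseudocount of 0.1 and a filter at 5 TPM. For BETp + mTORi versus vehicle the number was 1 with a filter at 5 TPM, and for BETp averaged over mTORi it was 0 to 1 when single libraries were left out, the 1 being IDH2 without the SSP25 vehicle library.

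Small effects changed sign. For BETp averaged over mTORi, quantile normalization and rescaling gave PBRM1 0.056 and 0.027 and SMAD4 0.070 and 0.034, and leaving out single libraries gave -0.048 to 0.041 for ARID1A, -0.095 to 0.079 for PBRM1 and -0.12 to 0.062 for SMAD4. For mTORi averaged over BETp, quantile normalization gave ARID1A 0.042, and leaving out single libraries gave -0.090 to 0.23 for FGFR1, -0.16 to 0.059 for FGFR2, -0.017 to 0.057 for BAP1 and -0.075 to 0.099 for PBRM1. Leaving out single libraries also gave -0.54 to 0.093 for IDH2 and -0.59 to 0.11 for FGFR1 with BETp versus vehicle, -0.55 to 0.078 for IDH2 with mTORi versus vehicle, and -0.044 to 0.39 for IDH1 with BETp + mTORi versus mTORi. FGFRL1 differed between lines by 0.050 with rescaling. Causes were not tested.

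Over all genes, calls ran from 0 to 657 for BETp + mTORi versus vehicle (291 as fitted), 0 to 476 for BETp averaged over mTORi (292) and 0 to 483 for mTORi averaged over BETp (168). With quantile normalization 57.1% and with rescaling 43.8% of the calls for BETp + mTORi versus vehicle were higher, against 16.2% as fitted, and for BETp averaged over mTORi 64.0% and 47.9% against 25.3%. TPM values keep no read depth, so what depth limits could not be given.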
